A study of Homo sapiens with 12 samples.

Results

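The response to loss of CD44 was compared between a pair of human triple negative breast cancer cell lines, Hs578T and MDA-MB-231, gene by gene. The question was which genes changed by different amounts, or in opposite directions, in the 2 lines, and whether the level of a gene in unedited cells went with how it changed. All 12 of the 12 RNA-seq libraries were used, 3 in each of 4 groups, and 15836 of 58381 genes had enough counts to be tested. For each gene the log2 change from CD44 WT to CD44 KO in MDA-MB-231 was subtracted from that in Hs578T, so a positive difference means a larger rise, or a smaller fall, in Hs578T.

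CD44 is a transmembrane receptor for hyaluronan, a large sugar polymer of the extracellular matrix. Its cytoplasmic tail binds ERM proteins and ankyrins, which link it to the actin cytoskeleton, and it acts as a co-receptor for growth factor receptors. It is abundant on mesenchymal-like breast cancer cells. Both lines used here are of that kind, but they come from different tumors and differ widely in the genes they express.

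All cells carried a lentiviral, doxycycline-inducible Cas9 and had been selected with puromycin. In the CD44 KO groups, Cas9 was directed by guide RNAs to a pair of CD44 exons and cells positive for CD29 (integrin beta 1, a surface marker shared by all the cells) and negative for CD44 were sorted. The CD44 WT groups of each line received transfection reagent without guide RNA and were sorted as positive for both proteins. The KO groups are therefore sorted pools of edited cells and not single clones, and all cells were kept in low serum before RNA was taken. The labels do not say whether the 3 libraries of a group come from separate cultures, so p-values measure the spread between these libraries, which may be technical. No separate edits or sorts are described within a line. An effect of CD44 loss that depends on the line therefore cannot be told apart from differences between the sorted pools. In bulk RNA, fewer cells that express a gene and less RNA per cell cannot be told apart.

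The libraries held 10257586 to 19725543 counted fragments. In CPM (counts scaled to a common library size with TMM factors), CD44 was at 527, 494 and 501 in Hs578T CD44 WT and 28.3, 28.6 and 24.9 in CD44 KO. In MDA-MB-231 they were 362, 363 and 360 in CD44 WT and 40.3, 32.4 and 30.0 in CD44 KO, so the groups were far apart in both lines, as labelled. CD44 itself fell by more in Hs578T, with a log2 fold change of -4.21 ± 0.11 (SE, n = 3 per group) against -3.40 ± 0.11, a difference of -0.81 ± 0.14 (edgeR quasi-likelihood test, adjusted p = 0.00198). Of the line markers, VIM was at 3718 CPM or more in all libraries and PGR at 0, CDH1 reached at most 0.968 CPM and ESR1 at most 1.15 CPM, while ERBB2 lay between 57.3 and 101 CPM. EPCAM, an epithelial adhesion molecule, was near 0 in Hs578T and averaged 17.6 CPM in MDA-MB-231 CD44 WT. The 77 genes found in CD44 WT of Hs578T alone summed to 0.507 to 1.00 CPM in the MDA-MB-231 libraries. The 46 genes found in CD44 WT of MDA-MB-231 alone summed to 0.553 to 0.902 CPM in Hs578T CD44 WT and to 6.56 to 10.5 CPM in Hs578T CD44 KO, where SLIT2, PRSS12 and RELN made up most of the sum and the other 43 summed to 1.2 to 2.4 CPM. Within groups, MDA-MB-231 CD44 WT replicate 1 lay farthest from its partners, with chi-square values per gene of 20.6 and 31.4 against 5.94 for the remaining pair. MDA-MB-231 CD44 KO replicate 1 (12.6 and 15.5 against 6.13) and Hs578T CD44 WT replicate 3 (9.55 and 14.7 against 4.56) also stood apart, and the Hs578T CD44 KO pairs lay between 6.18 and 11.7. The libraries that stood apart in these groups all fall in the same set of consecutive numbers in the column names.

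The response differed between the lines for 653 genes (4.12% of genes tested, edgeR quasi-likelihood test, adjusted p of at most 0.01). For 369 of them the difference was positive (2.33%) and for 284 negative (1.79%). The median size of a called difference was 1.599 on the log2 scale, with quartiles of 0.93 and 3.01. For comparison, 1189 genes were called in Hs578T (7.51% of those tested), 577 higher (3.64%) and 612 lower (3.86%) in CD44 KO, and 731 in MDA-MB-231 (4.62%), 312 higher (1.97%) and 419 lower (2.65%). Over all genes tested the median difference was 0.02. Without MDA-MB-231 CD44 WT replicate 1 the number of genes called was 804, without Hs578T CD44 WT replicate 3 it was 705 and with MDA-MB-231 CD44 KO replicate 1 left out it was 527, while it fell to 400, 418, 415, 396 and 430 without Hs578T CD44 WT replicate 1 or 2, Hs578T CD44 KO replicate 2 or 3, or MDA-MB-231 CD44 KO replicate 2. Without any single library in turn, 321 of the 653 genes were called each time, and 0 turned their direction.

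Most of the 653 genes passed the test in 1 line. In Hs578T alone, 157 rose and 152 fell. In MDA-MB-231 alone, 76 rose and 149 fell. Another 34 passed in both lines in opposite directions (0.215% of genes tested), 9 passed in both lines in the same direction by unequal amounts, and 76 passed in neither line but differed between them. Of the 67 genes called in both lines in the same direction, 58 were not called for a difference. In the 309 genes of Hs578T alone, the fitted change in MDA-MB-231 lay within 0.5 of 0 on the log2 scale for 228, and for 70 it went at least 0.5 the opposite way. In the 225 genes of MDA-MB-231 alone, the change in Hs578T lay within 0.5 of 0 for 198 and went at least 0.5 the opposite way for 25. On the linear CPM scale the difference had the same direction for 624 of the 653 genes.

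**Figure D1:**
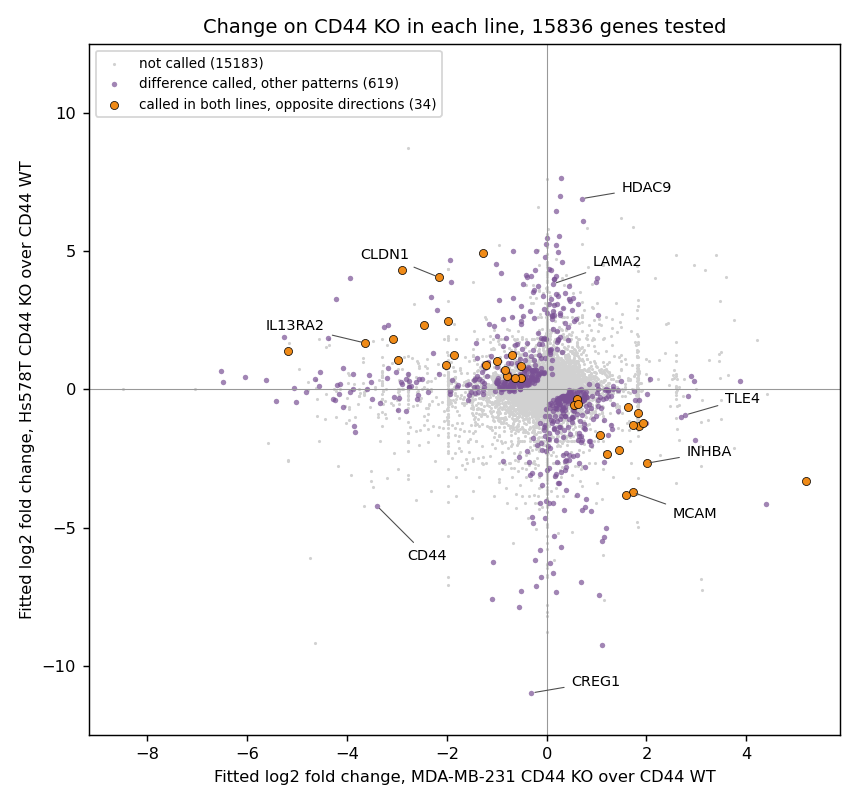
Fitted log2 change from CD44 WT to CD44 KO for each of 15836 genes tested, in MDA-MB-231 on the horizontal and in Hs578T on the vertical axis. The 653 genes called for the difference lie mostly along the axes, the 34 called in both lines in opposite directions lie in the upper left and lower right, and CD44 lies at -3.40 and -4.21.

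The 34 genes with opposite calls were of many kinds, and 19 rose in Hs578T CD44 KO and fell in MDA-MB-231 CD44 KO while 15 did the reverse. Their difference was called without each single library in turn for all 34. The opposite calls themselves, which need both lines past the threshold, held without each library for 8: CLDN1, IL13RA2, SPANXD and BEX2 among those higher in Hs578T, and MCAM, INHBA, LINC03033 and PMEPA1 among those lower. For 16 they held in at most 6 of the 12 fits that each leave out 1 library. The number of genes with opposite calls fell to 17 without Hs578T CD44 WT replicate 2, to 20, 16 and 20 without the Hs578T CD44 KO libraries, to 22 when MDA-MB-231 CD44 WT replicate 3 was left out, and to 14 when replicate 2 of MDA-MB-231 CD44 KO was.

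CLDN1 encodes claudin-1, a tight junction protein that seals the space between epithelial cells. It was listed at 1.11, 0.411 and 0.423 CPM in Hs578T CD44 WT and at 10.8, 14.5 and 8.53 CPM in CD44 KO. In MDA-MB-231 it went the other way, from 13.4, 12.1 and 12.7 CPM to 3.47, 3.18 and 1.68 CPM. No library of CD44 KO overlapped those of CD44 WT in either line, and the KO cells of Hs578T stood about where the WT cells of MDA-MB-231 had been. The log2 fold changes were 4.06 ± 0.34 in Hs578T and -2.16 ± 0.27 in MDA-MB-231, a difference of 6.21 ± 0.43 (SE, n = 3 per group, edgeR adjusted p = 6.96e-07).

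IL13RA2, a decoy receptor that binds interleukin 13 tightly, was at 11.8, 17.6 and 21.7 CPM in Hs578T CD44 WT and at 50.9, 59.8 and 51.9 CPM in CD44 KO. MDA-MB-231 CD44 WT cells held much the same level, 16.8, 10.7 and 10.1 CPM, but CD44 KO cells only 0.847, 1.17 and 0.889 CPM. A gene at overlapping levels in the unedited lines thus ended far apart, with log2 fold changes of 1.68 ± 0.20 and -3.64 ± 0.30 and a difference of 5.32 ± 0.36 (SE, n = 3 per group, edgeR adjusted p = 6.71e-07).

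MCAM (CD146), an immunoglobulin-type adhesion molecule of endothelial and melanoma cells, fell in Hs578T from 25.5, 19.8 and 8.46 CPM to 0.963, 1.48 and 1.62 CPM. It rose in MDA-MB-231 from 95.0, 86.8 and 81.0 CPM to 316, 286 and 267 CPM. Hs578T CD44 WT replicate 3 had the lowest level of its group but stood well above the KO libraries. The difference was -5.45 ± 0.42 (SE, n = 3 per group, edgeR adjusted p = 1.88e-06).

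Genes of the TGF-beta superfamily and its responses were called in both directions, and the 4 described here are those with a negative difference. INHBA, the subunit of activin A, a secreted ligand, went from 3.12, 3.54 and 1.52 CPM to 0.401, 0.370 and 0.512 CPM in Hs578T and from 1.97, 2.76 and 1.87 CPM to 9.83, 8.95 and 7.80 CPM in MDA-MB-231. PMEPA1, a TGF-beta target that restrains SMAD signalling, went from 40.1, 32.2 and 17.4 CPM to 11.7, 12.1 and 12.54 CPM in Hs578T and from 3.00, 2.76 and 2.67 CPM to 7.62, 9.53 and 10.96 CPM in MDA-MB-231. The groups did not overlap in either line for both genes, with differences of -4.68 ± 0.45 and -3.04 ± 0.36 (SE, n = 3 per group, edgeR adjusted p = 1.02e-05 and 7.67e-05). TGFBI, a matrix protein induced by TGF-beta, was called in MDA-MB-231 alone, where it rose from 6.17, 6.08 and 4.19 CPM to 14.4, 20.2 and 22.02 CPM. In Hs578T it was abundant throughout, at 1560.4, 1399 and 859 CPM in CD44 WT and 881, 1049.8 and 969.8 CPM in CD44 KO, and the groups overlapped. BAMBI, a decoy receptor of the same pathway, fell in Hs578T alone, by 1.44 ± 0.15 on the log2 scale (adjusted p = 1.15e-05), against a value of 0.16 ± 0.18 in MDA-MB-231 (SE, n = 3 per group, edgeR). Of 63 tested genes of TGF-beta, activin and BMP signalling, 7 were called (11.1%, against 4.12% of all genes), 3 with a positive and 4 with a negative difference. The positive ones were 2 of 14 secreted antagonists and 1 of 11 targets, so the list did not go 1 way. The list's median difference was -0.27 against 0.02 over all genes.

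TBX3, a T-box transcription factor of mammary development, fell in Hs578T from 57.4, 44.3 and 32.8 CPM to 24.5, 23.6 and 25.8 CPM and rose in MDA-MB-231 from 2.40, 2.03 and 1.87 CPM to 7.12, 7.68 and 7.60 CPM. NGFR, the p75 neurotrophin receptor, fell in Hs578T from 5.96, 8.47 and 4.91 CPM to 2.41, 2.65 and 3.33 CPM and rose in MDA-MB-231 from 1.54, 1.38 and 1.07 CPM to 4.66, 5.35 and 5.23 CPM. In both genes the KO libraries stood apart from the WT libraries in each line. The lines came closer for TBX3, while for NGFR their order turned. The Hs578T call of TBX3 was lost without Hs578T CD44 KO replicate 2 (adjusted p = 0.0126), and that of NGFR without Hs578T CD44 WT replicate 2 or CD44 KO replicate 1 or 2 (edgeR adjusted p of up to 0.0151). The differences were -2.69 ± 0.28 and -3.13 ± 0.34 (SE, n = 3 per group, edgeR adjusted p = 2.1e-05 and 4.12e-05).

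LCP1, the actin-bundling protein L-plastin, rose in Hs578T from 108, 130 and 121 CPM to 214, 253 and 192 CPM and fell in MDA-MB-231 from 57.1, 37.4 and 33.0 CPM to 24.0, 13.9 and 17.6 CPM, with a difference of 2.09 ± 0.28 (SE, n = 3 per group, edgeR adjusted p = 0.000201). The potassium channel genes KCNC4, a voltage-gated pore subunit, and KCNAB2, a regulatory beta subunit, rose in Hs578T by 1.02 ± 0.17 and 0.84 ± 0.13 on the log2 scale and changed by -0.998 ± 0.18 and -0.52 ± 0.11 in MDA-MB-231 (SE, n = 3 per group). Of these, LCP1 lost the Hs578T call without any of the 3 Hs578T CD44 WT libraries or without Hs578T CD44 KO replicate 1 or 2 (edgeR adjusted p of up to 0.0340), and its MDA-MB-231 call without MDA-MB-231 CD44 KO replicate 2 (adjusted p = 0.0132). KCNC4 lost its MDA-MB-231 call without CD44 KO replicate 2 or 3 of that line (edgeR adjusted p of up to 0.0126). KCNAB2 lost it without Hs578T CD44 WT replicate 2, without MDA-MB-231 CD44 WT replicate 1 or 3, or without any of the 3 MDA-MB-231 CD44 KO libraries (edgeR adjusted p of up to 0.0316). CD55 (a complement regulator), ACACB (an acetyl-CoA carboxylase of fat metabolism) and EFNB1 (ephrin-B1) had positive differences of 0.93, 1.54 and 1.06, and the hair keratin KRT81, FBLIM1, FOXRED2 and INTS8 had negative ones of -3.63, -1.10, -1.17 and -0.96. For these 7 genes the opposite calls held in 0 to 5 of the 12 fits that leave out 1 library, whereas the call for the difference held in all 12.

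**Figure D2:**
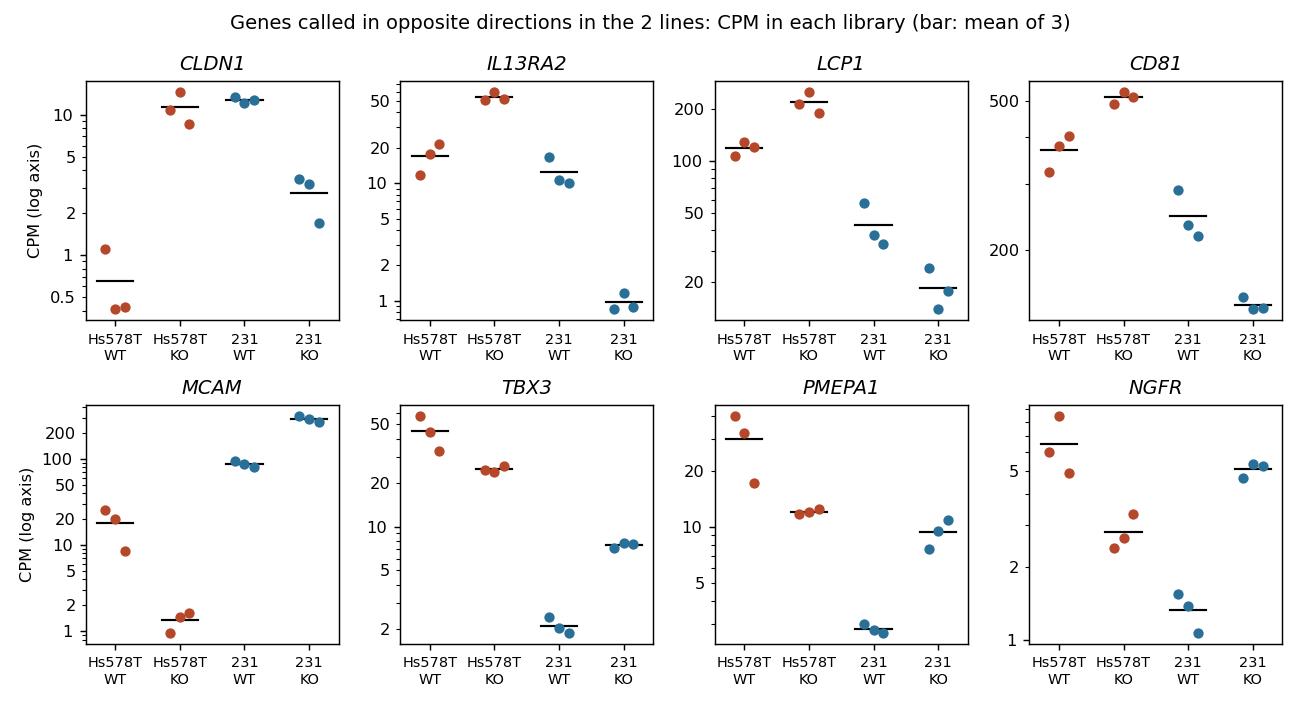
CPM on a log axis in each library (points) and the mean of 3 libraries (bars) for 8 of the 34 genes with opposite calls, by line and CD44 status. CLDN1, IL13RA2, LCP1 and CD81 rise in Hs578T and fall in MDA-MB-231, and MCAM, TBX3, PMEPA1 and NGFR do the reverse.

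Promoters of 4 genes with opposite calls are shown because these genes turned one way in Hs578T and the other way in MDA-MB-231. They are the pair with the smallest adjusted p in each direction among those at 5 CPM or more in both lines that the RefSeq promoter table held (GRCh38.p14, 250 bases before to 50 after the start). CLDN1 lies on the minus strand (chr3:190322397-190322696) and KCNC4 on the plus strand (chr1:110210064-110210363), and both rose in Hs578T. MCAM lies on the minus strand (chr11:119317081-119317380) and the long non-coding RNA LINC03033 on the plus strand (chr14:61570290-61570589), and both fell in Hs578T. Capitals mark matches on either strand to any of the motifs searched. These were TGACTCA, the site of AP-1 factors, then TGACGT, the core site of CREB and ATF factors, then GGAATG, the site of TEAD factors, then CACGTG, the symmetric E-box, then CACCTG, the E-box bound by ZEB and SNAI factors, and TATAAA, the TATA box.
CLDN1: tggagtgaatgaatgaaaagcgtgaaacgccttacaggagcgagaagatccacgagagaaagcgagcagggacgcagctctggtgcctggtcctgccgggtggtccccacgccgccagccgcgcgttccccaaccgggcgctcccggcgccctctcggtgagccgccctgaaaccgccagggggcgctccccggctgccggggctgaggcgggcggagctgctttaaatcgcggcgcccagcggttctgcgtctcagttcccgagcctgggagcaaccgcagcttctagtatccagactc
KCNC4: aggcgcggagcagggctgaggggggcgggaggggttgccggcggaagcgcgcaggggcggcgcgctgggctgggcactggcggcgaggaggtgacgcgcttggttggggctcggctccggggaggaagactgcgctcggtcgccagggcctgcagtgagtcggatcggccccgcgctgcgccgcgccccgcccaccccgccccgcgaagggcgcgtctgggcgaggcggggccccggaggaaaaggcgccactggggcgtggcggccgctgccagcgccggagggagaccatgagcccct
MCAM: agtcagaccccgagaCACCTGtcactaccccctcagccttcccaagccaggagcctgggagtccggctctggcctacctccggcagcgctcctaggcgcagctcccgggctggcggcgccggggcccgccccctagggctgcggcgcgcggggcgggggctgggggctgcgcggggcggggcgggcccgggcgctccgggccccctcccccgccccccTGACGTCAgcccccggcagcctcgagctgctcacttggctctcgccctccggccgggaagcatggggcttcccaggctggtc
LINC03033: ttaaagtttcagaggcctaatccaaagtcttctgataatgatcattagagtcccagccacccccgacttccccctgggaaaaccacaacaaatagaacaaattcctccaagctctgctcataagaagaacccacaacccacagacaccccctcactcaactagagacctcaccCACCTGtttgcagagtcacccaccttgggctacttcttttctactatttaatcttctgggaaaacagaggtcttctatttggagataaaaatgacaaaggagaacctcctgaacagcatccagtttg
No match was found in the windows of CLDN1 and KCNC4. The MCAM window held CACCTG and TGACGT on both strands, the latter overlapping, and the LINC03033 window held CACCTG. Over all 27305 promoters of the table, the E-box of ZEB and SNAI factors was held by 20.6%, the CREB and ATF site by 8.32%, the TEAD site by 14%, the TATA box by 12%, the symmetric E-box by 7.43% and the AP-1 site by 4.92%.

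The 10 most negative called differences were named among genes at 5 CPM or more in a group, with KO libraries on 1 side of the WT libraries in a line. They belonged to genes at or near 0 in Hs578T CD44 KO that did not pass the test in MDA-MB-231. CREG1, a secreted lysosomal glycoprotein, was at 29.3, 20.8 and 8.38 CPM in Hs578T CD44 WT and at 0 counts in all 3 CD44 KO libraries, against 775 counts in CD44 WT. That is at least 271.9-fold lower, taking 3 counts over the group as the limit that a count of 0 allows. In MDA-MB-231 it was at 39.4, 45.4 and 43.4 CPM in CD44 WT and at 33.0, 34.7 and 35.9 CPM in CD44 KO. IQGAP2, a scaffold protein that binds actin, fell in Hs578T from 232 counts to 0, at least 81.39-fold, and was at 1.29, 1.05 and 1.25 CPM in MDA-MB-231 CD44 WT and 1.61, 3.02 and 3.06 CPM in CD44 KO. VAT1L went from 402 counts to 3 in Hs578T, a ratio of 141 (exact 95% counting interval 47.9 to 687), and LEF1 from 219 counts to 1, a ratio of 231 (40.9 to 9145). These intervals and limits cover counting error only.

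In MDA-MB-231 CD44 KO, VAT1L was at 23.6, 22.5 and 32.4 CPM against 15.7, 16.6 and 15.9 CPM in CD44 WT, and LEF1, a transcription factor that carries WNT signals, at 21.6, 17.9 and 12.7 CPM against 17.4, 13.5 and 14.97 CPM. ADGRG2, an adhesion G protein-coupled receptor, fell in Hs578T from 26.2, 22.7 and 12.4 CPM to 0.0802, 0.123 and 0.341 CPM and was between 0.932 and 2.41 CPM in every MDA-MB-231 library. NTRK2, the receptor for brain-derived neurotrophic factor, and TLR3, the sensor of double-stranded RNA, fell in Hs578T from 60 counts to 1 (ratio 63.2, counting interval 10.9 to 2535) and from 131 to 3 (ratio 46.0, interval 15.4 to 226). In MDA-MB-231 their log2 fold changes were 1.11 ± 0.37 and 1.16 ± 0.33, which did not pass the test (SE, n = 3 per group, edgeR adjusted p = 0.0776 and 0.0382). In most of these genes Hs578T CD44 WT replicate 3 held the lowest level of its group. PKP2 (a desmosome protein), CYBA (a subunit of the NADPH oxidase) and the pseudogene NUDT16L2P also went to 0 counts in Hs578T CD44 KO, from 51, 37 and 59 counts. PKP2 lost its call without Hs578T CD44 KO replicate 2 or 3 (edgeR adjusted p of up to 0.0140), CYBA without Hs578T CD44 WT replicate 1 or CD44 KO replicate 2 (up to 0.0126), and NUDT16L2P without Hs578T CD44 WT replicate 1 or 2 or any of the 3 Hs578T CD44 KO libraries (up to 0.0160).

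Under the same rule, the largest positive differences came from genes that appeared in Hs578T CD44 KO or that were lost in MDA-MB-231 CD44 KO. HDAC9, a class II histone deacetylase, was at 0.832, 0.823 and 0.508 CPM in Hs578T CD44 WT and at 77.7, 102 and 85.0 CPM in CD44 KO. In MDA-MB-231 it was already present, at 19.6, 39.7 and 37.3 CPM in CD44 WT and 55.3, 53.7 and 47.8 CPM in CD44 KO. The Hs578T KO libraries thus passed the level of MDA-MB-231, and the difference was 6.2 ± 0.37 (SE, n = 3 per group, edgeR adjusted p = 1.63e-07). The protocadherins PCDH18 and PCDH9, cell adhesion proteins best known in neurons, rose in Hs578T from 2 counts to 321 (ratio 152, counting interval 41.9 to 1265) and from 0 to 79 counts (at least 25-fold). PCDH9 was at 3.60 to 5.68 CPM in every MDA-MB-231 library. RELN, the secreted guidance protein reelin, rose in Hs578T from 1 count to 44 (ratio 41.8, interval 7.12 to 1688), and in MDA-MB-231 it was at 24.3, 27.1 and 29.9 CPM in CD44 WT and 16.3, 9.27 and 7.999 CPM in CD44 KO. TMTC2, a membrane protein of the endoplasmic reticulum, went from 0 to 34 counts in Hs578T, at least 10.8-fold. Its call was lost without any of the 3 Hs578T CD44 WT libraries and without Hs578T CD44 KO replicate 2 or 3 (edgeR adjusted p of up to 0.0180).

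In MDA-MB-231 CD44 KO, NAP1L2, a histone chaperone gene, went from 31 counts to 0 (at least 11.97-fold lower), ANO3, of the anoctamin family, from 59 to 1 (ratio 68.4, counting interval 11.8 to 2745) and the long non-coding RNA LINC01088 from 61.9, 40.6 and 40.8 CPM to 2.97, 3.28 and 3.06 CPM. In Hs578T, NAP1L2 was at 3.81 to 8.79 CPM and ANO3 at 6.99 to 11.7 CPM in all 6 libraries, and LINC01088 went from 0 to 6 counts. The difference of LINC01088 lost its call without Hs578T CD44 KO replicate 1 or 2 (edgeR adjusted p of up to 0.0210). GABRG3, a subunit of the GABA receptor, rose in Hs578T from 0.485, 0.658 and 0.677 CPM to 7.86, 4.69 and 5.20 CPM and went from 6 counts to 0 in MDA-MB-231. Of all 653 genes, 65 had 3 or fewer counts in the WT or KO group of a line, and the fitted fold change of such a gene depends on the prior count of the fit.

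Gene families are given by how many members were called and by their median change, beside 4.12% called and a median difference of 0.02 over all genes. Of the 653 genes, 135 belonged to at least 1 of 41 lists, and 72 of these kept their call without each library in turn. Cadherins and protocadherins, the calcium-dependent adhesion proteins, had 5 of 44 tested members called (11.4%), all 5 with a positive difference. The list's median log2 change stood at 0.50 for Hs578T and -0.20 for MDA-MB-231. CDH18 rose in Hs578T from 4.44, 6.42 and 6.01 CPM to 15.1, 17.1 and 14.3 CPM and was at 23.9 to 30.2 CPM in every MDA-MB-231 library. Of the 5, CDH18, PCDH18 and PCDH9 kept their call without each library.

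Collagens, the fibrous proteins of the matrix, went the other way, with 5 of 28 called (17.9%), 0 positive and 5 negative. Their median log2 change stood at -0.27 for Hs578T and 0.38 for MDA-MB-231, and the median difference of -0.73 was the most negative of the lists with at least 4 called genes. In CD44 WT the tested collagens were higher in Hs578T, by a median of 2.75 on the log2 scale. How far members with few counts in MDA-MB-231 CD44 WT shape the median difference was not tested. COL12A1, a fibril-associated collagen, fell in Hs578T from 29.5, 30.0 and 45.03 CPM to 14.9, 15.7 and 13.1 CPM and was at 70.8, 97.2 and 116 CPM in MDA-MB-231 CD44 WT and 222, 146 and 112 CPM in CD44 KO, where the groups overlapped. It was the 1 collagen of 5 that kept its call without each library. Laminins and matrix glycoproteins were mixed, with 2 positive and 4 negative of 39. LAMA2, the laminin chain of muscle and nerve basement membranes, rose in Hs578T from 4.72, 7.49 and 7.45 CPM to 81.1, 116 and 77.7 CPM and lay between 0.802 and 1.62 CPM in every MDA-MB-231 library.

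Keratins and epithelial junction genes had 7 of 33 called (21.2%), 2 positive and 5 negative, and 4 of the 7 kept the call without each library. KRT80, an epithelial keratin, fell in Hs578T from 45.7, 28.9 and 17.4 CPM to 7.14, 3.21 and 7.76 CPM and was at 41.6, 54.1 and 44.7 CPM in MDA-MB-231 CD44 WT and 56.6, 64.4 and 92.7 CPM in CD44 KO. The 14 tested keratins had a median log2 change of -1.12 in Hs578T. PKP3, a desmosome protein like PKP2, fell in MDA-MB-231 alone, from 36.7, 29.9 and 30.9 CPM to 10.8, 11.8 and 13.1 CPM, and stayed between 77.9 and 86.2 CPM in Hs578T.

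WNT signalling had 7 of 45 called (15.6%), 1 positive and 6 negative, and 6 of these 7 were among the 17 effectors and targets, while 0 of 8 ligands were called. In Hs578T 0 of the 45 genes rose and 13 fell, against 2 and 4 in MDA-MB-231. TLE4, a co-repressor that binds LEF1-type factors, rose in MDA-MB-231 from 3.94, 3.49 and 4.19 CPM to 30.2, 27.1 and 21.9 CPM, and in Hs578T was at 3.26, 2.39 and 1.52 CPM in CD44 WT and 1.203, 1.11 and 1.54 CPM in CD44 KO. FZD8, a WNT receptor, fell in Hs578T from 14.2, 10.5 and 9.82 CPM to 5.05, 7.03 and 6.14 CPM, and its value in MDA-MB-231 was 0.72 ± 0.16 (SE, n = 3 per group, edgeR adjusted p = 0.0117). LEF1, TLE4 and FZD8 kept their call without each library. The number called ranged from 3 to 12 over the alternative analyses that kept the same cut on adjusted p and set no minimum size.

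**Figure D3:**
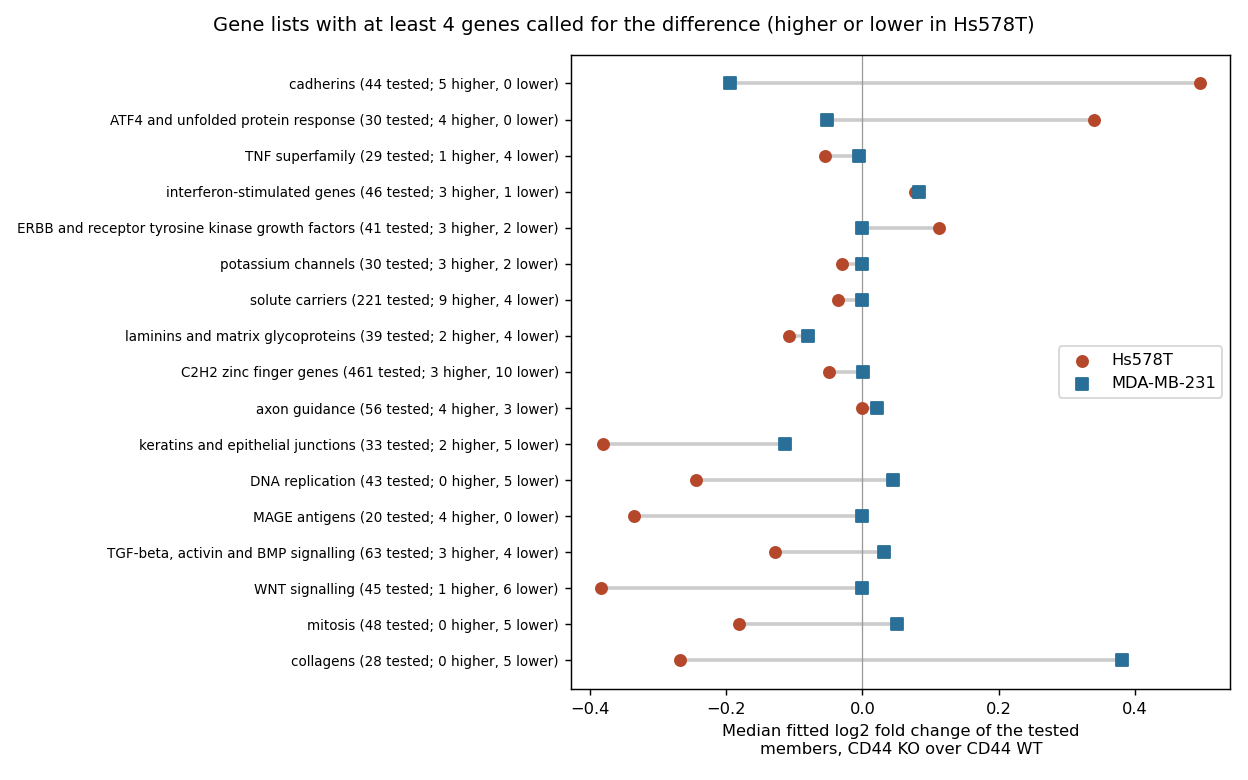
Median fitted log2 change from CD44 WT to CD44 KO over the tested members of each gene list, in Hs578T (circles) and MDA-MB-231 (squares), for lists with at least 4 genes called for the difference. Each label gives the number tested and the numbers called higher or lower in Hs578T. Cadherins lie at 0.50 and -0.20 and collagens at -0.27 and 0.38.

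Genes of amino acid supply and the unfolded protein response had 4 of 30 called (13.3%), all 4 positive, and their median log2 change stood at 0.34 for Hs578T and -0.05 for MDA-MB-231. SLC7A5 and SLC3A2, which together form the transporter LAT1 for large neutral amino acids, rose in Hs578T by 0.67 ± 0.10 and 0.64 ± 0.10 on the log2 scale. In MDA-MB-231 their values were -0.34 ± 0.10 and -0.23 ± 0.09 and did not pass the test (SE, n = 3 per group, edgeR adjusted p = 0.0469 and 0.148). Their differences, 1.01 ± 0.14 and 0.88 ± 0.13, were called without each library in turn, whereas the other 2 called genes of the list were not. Glycolysis genes had 3 of 25 called, all 3 positive, of which SLC2A3, a glucose transporter, kept the call without each library. It rose in Hs578T from 25.6, 26.4 and 20.1 CPM to 50.5, 68.7 and 46.1 CPM, and the MDA-MB-231 groups overlapped.

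The called differences of cell cycle genes all went in 1 direction. DNA replication had 5 of 43 called and mitosis 5 of 48, with 10 of these 10 negative. The median log2 change stood at -0.24 for Hs578T and 0.04 for MDA-MB-231 for replication and -0.18 and 0.05 for mitosis. GINS1, part of the replicative helicase, went from 40.2, 39.3 and 42.7 CPM to 29.9, 29.1 and 30.8 CPM in Hs578T, and in MDA-MB-231 from 46.6, 46.8 and 49.8 CPM to 65.1, 62.2 and 56.2 CPM. The groups did not overlap in either line, but the change passed the test in Hs578T only (edgeR adjusted p = 0.00355 and 0.0159), and the difference was -0.80 ± 0.13 (SE, n = 3 per group, edgeR adjusted p = 0.00081). GINS1, MCM10 and POLD1 kept their call without each library, and 0 of the 5 mitosis genes did.

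MAGE genes, a family that includes cancer-testis antigens and broadly expressed members, had 4 of 20 called (20%), all 4 positive, while the median difference over the list was -0.24 and so of the opposite sign. MAGEA3 fell in both lines but more in MDA-MB-231, from 71.2, 62.4 and 51.7 CPM to 39.2, 35.0 and 35.8 CPM in Hs578T and from 61.1, 49.4 and 46.4 CPM to 7.37, 6.30 and 6.12 CPM in MDA-MB-231. MAGE genes are close paralogs, and fragments that fit several of them may be split or lost in counting. MAGEA11 and MAGEE1 fell in MDA-MB-231 alone, by 3.49 ± 0.39 and 3.93 ± 0.43 on the log2 scale (SE, n = 3 per group, edgeR adjusted p = 4.46e-05 and 3.66e-05), and these 3 genes kept their call without each library.

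Among genes of growth factor families, VEGFC, a growth factor of lymphatic vessels, rose in Hs578T from 4.72, 5.51 and 6.26 CPM to 25.6, 45.4 and 32.9 CPM. It was at 98.0, 85.8 and 80.2 CPM in MDA-MB-231 CD44 WT and 62.9, 67.5 and 60.7 CPM in CD44 KO. The MDA-MB-231 groups did not overlap, but the change of -0.46 ± 0.15 did not pass the test (SE, n = 3 per group, edgeR adjusted p = 0.0752). FGF13, an intracellular member of the fibroblast growth factor family, fell in Hs578T from 11.9, 8.23 and 4.23 CPM to 0.0802, 0.0617 and 0.171 CPM, and its value in MDA-MB-231 was -1.08 ± 0.33 (SE, n = 3 per group, edgeR adjusted p = 0.0525). Interferon-stimulated genes had 4 of 46 called, 3 positive and 1 negative. BST2 (tetherin), which holds budding viruses at the cell surface, rose in MDA-MB-231 from 10.8, 11.4 and 7.22 CPM to 35.6, 36.7 and 47.9 CPM and lay between 156 and 199 CPM in every Hs578T library. HERC6 rose in Hs578T, from 0.347, 0.576 and 0.508 CPM to 5.78, 4.99 and 5.80 CPM, just below the 6.01 to 9.73 CPM of the MDA-MB-231 libraries.

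Of 16 tested genes of hyaluronan turnover, CD44 and HAS2 were called. CD44 is the edited gene, so its call says nothing about the family. The list is therefore not compared with the 4.12% of all genes, and HAS2 was its only other call. HAS2, a hyaluronan synthase, rose in Hs578T from 2.64, 2.88 and 2.71 CPM to 18.8, 17.6 and 23.8 CPM, and was at 6.68, 15 and 17.7 CPM in MDA-MB-231 CD44 WT and 22.8, 19.1 and 13.8 CPM in CD44 KO, where the groups overlapped. The difference of 2.36 ± 0.41 (SE, n = 3 per group, edgeR adjusted p = 0.00182) was called without each library. Of the 13 ERM and other cytoskeletal linkers of CD44, of 19 proteoglycans, 25 genes of cholesterol synthesis, 29 HOX genes and 9 of MHC class I presentation, edgeR called 0 for a difference. At an unadjusted p under 0.05 there were 7, 6, 7, 3 and 1 of them, against 3888 of all 15836 genes, and DESeq2 called 3, 1, 2, 0 and 0.

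Part of the difference followed the position of the genes on chromosome 11, which carries CD44 (ENSG00000026508.18, GRCh38, chr11:35138870-35232402, plus strand). Between the start of the chromosome and CD44, 225 genes were tested and 56 were called (24.9%), 55 positive and 1 negative. Their median log2 fold change was -0.57 in MDA-MB-231 CD44 KO and 0.08 in Hs578T CD44 KO, and 88.0% of them had a value below 0 in MDA-MB-231. On the other side of CD44, 2 of 63 genes were called within 20 Mb and 20 of 583 beyond, with medians in MDA-MB-231 of -0.02 and -0.04. The lower level in MDA-MB-231 thus ended at CD44. These stretches were chosen after the values were seen.

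The 3 MDA-MB-231 CD44 KO libraries lay close together, with medians of -0.51, -0.51 and -0.46 from the mean of CD44 WT for the genes before CD44, whereas the 3 CD44 WT libraries lay at 0.02, 0.00 and -0.01 and the Hs578T CD44 KO libraries at 0.05, 0.10 and 0.09. Of the 149 genes that fell in MDA-MB-231 alone, 46 lie in this stretch. It holds PKP3, ANO3 and CD81. CD81, a tetraspanin, is 1 of the 34 with opposite calls, and went from 323, 380 and 403 CPM to 491, 528 and 512 CPM in Hs578T and from 288.8, 234.2 and 218.6 CPM to 150, 140 and 140 CPM in MDA-MB-231. Its Hs578T call was lost without 7 of the libraries in turn, namely Hs578T CD44 WT replicate 1 or 2, any of the 3 Hs578T CD44 KO libraries, MDA-MB-231 CD44 WT replicate 3 or MDA-MB-231 CD44 KO replicate 2 (edgeR adjusted p of up to 0.0503). Without the stretch, 597 genes remained called (3.82% of 15611), 314 positive and 283 negative. No DNA data were used here, and the part of gene dosage was not tested.

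**Figure D4:**
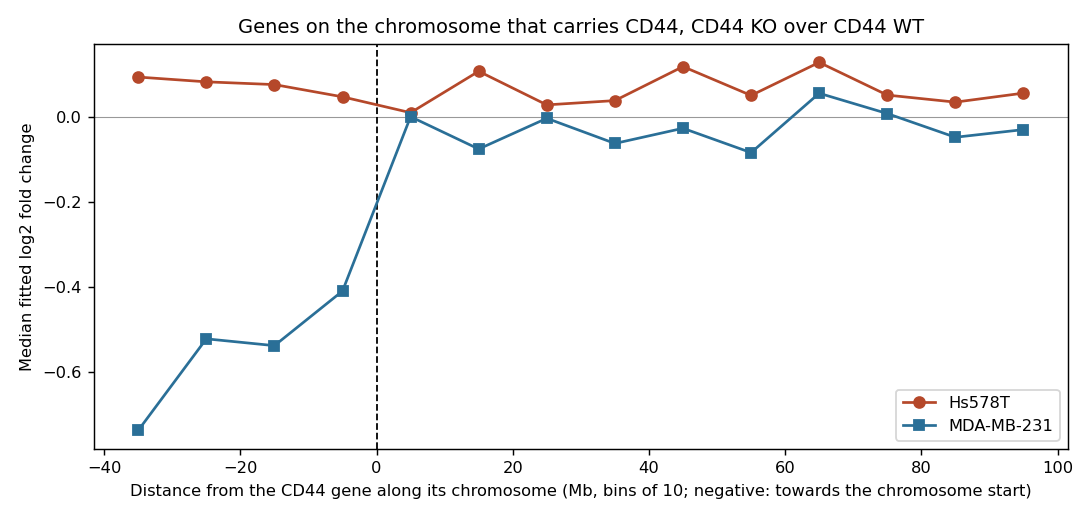
Median fitted log2 change from CD44 WT to CD44 KO for genes on chromosome 11 in bins of 10 Mb, plotted by their distance from the start of CD44 (dashed line), in Hs578T (circles) and MDA-MB-231 (squares), without CD44 itself. The 4 bins before CD44 lie between -0.74 and -0.41 in MDA-MB-231, and the bins beyond it between -0.08 and 0.06, while Hs578T lies between 0.01 and 0.13.

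Medians over whole chromosomes differed from 0 by smaller amounts. On chromosome 18 the median log2 fold change was 0.30 in MDA-MB-231 and 0.03 in Hs578T. Of 249 genes tested there, 29 were called higher and 2 lower in MDA-MB-231 CD44 KO, against 1.97% and 2.65% of all genes. For the difference 6.02% were called, against 4.12% of all genes. Chromosomes 2 and 13 had medians of -0.23 and -0.20 in Hs578T and -0.02 and 0.01 in MDA-MB-231. On chromosome 2, 52 of 1105 genes were called for the difference, 38 negative and 14 positive. That is 4.71%, near the 4.12% of all genes. Its first 10 Mb were below 0 in both lines, with medians of -0.40 in Hs578T and -0.62 in MDA-MB-231 over 30 genes. Library medians lay close together, between 0.28 and 0.29 on chromosome 18 in MDA-MB-231 CD44 KO and between -0.23 and -0.22 on chromosome 2 in Hs578T CD44 KO. In bins of 10 Mb with at least 20 tested genes, 34 of 275 had a median difference of 0.3 or more in size. These 34 include bins of chromosome 11 before CD44 and held 163 called genes among 1525 tested. The bins were picked by that same difference, so a share above the 4.12% of all genes is built into the choice. Outside chromosome 11, the most positive bin lay on chromosome 12 (0.53, 4 of 37 tested genes called positive and 0 negative). The most negative bin lay on chromosome 8 and holds INTS8 (-0.49, 0 positive and 5 negative of 44 tested). The cause was not tested.

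The baseline, the difference of the lines in CD44 WT, said little about the response across all genes. Spearman's correlation across the 15836 genes between the log2 difference of the WT groups (Hs578T minus MDA-MB-231) and the difference of the responses was -0.0308. Genes are not independent replicates, and the WT libraries enter both measures, which by itself pushes such a correlation below 0. With the baseline taken from 1 WT library of each line and the change from the others, the correlation was -0.00927, 0.00346 and 0.0471 for the 3 choices. In the 12093 genes at 1 CPM or more in both WT groups it was -0.0424.

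The share of genes called varied between classes of the baseline, against 4.12% over all genes. Among 9700 genes within 1 log2 unit between the WT lines, 277 were called (2.86%), 147 positive and 130 negative. Among 989 genes higher in MDA-MB-231 CD44 WT by 3 or more, 96 were called (9.71%), 77 positive and 19 negative. Among 1583 genes higher in Hs578T CD44 WT by 3 or more, 53 were called (3.35%), 16 positive and 37 negative. In the classes between, higher by 1 to 3 in MDA-MB-231 or in Hs578T, 6.07% and 6.63% were called, with 61 positive and 40 negative in the first and 68 positive and 58 negative in the second. In both outer classes most called differences had the sign that brings the line with less of the transcript up relative to the other. With separate WT libraries for baseline and change, the first of them had 59 positive and 8 negative, 39 and 9, and 50 and 36, and the second 12 and 23, 10 and 15, and 18 and 26. The direction was thus the same in all 3 choices, and the split was least where Hs578T CD44 WT replicate 3 and the unnumbered MDA-MB-231 CD44 WT library gave the baseline. A gene with almost no counts in a WT group can hardly fall further, and passed the filter mainly through other groups. Floor and filter therefore favour this direction in both outer classes, also with separate WT libraries. Their part was not tested, so the direction is not read as a response to CD44 loss.

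**Figure D5:**
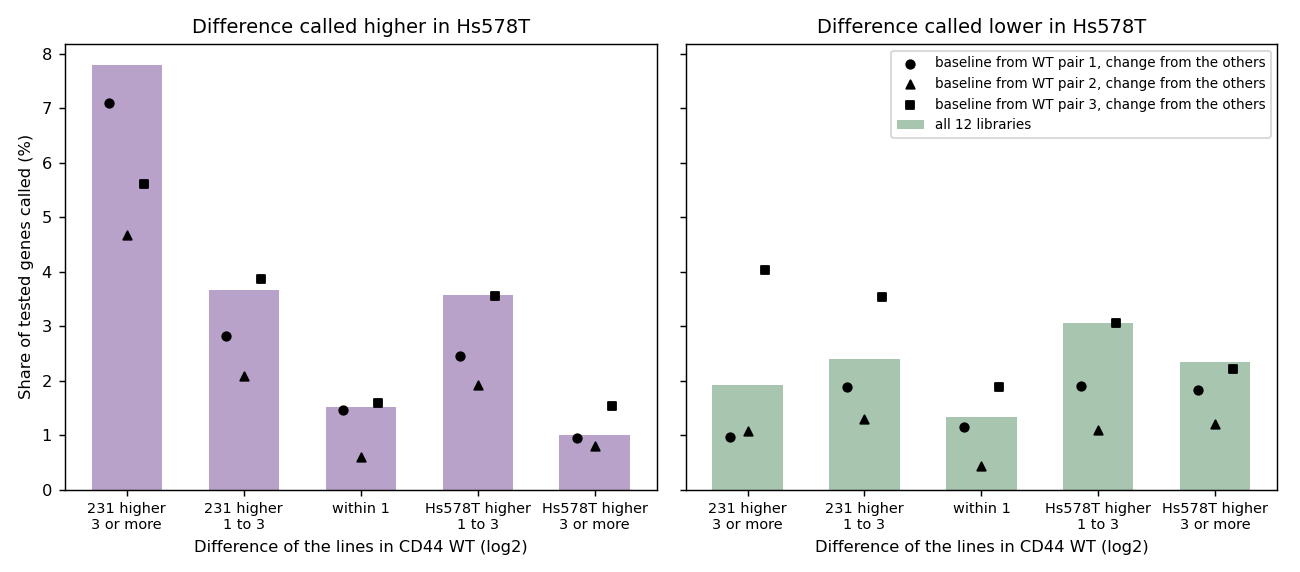
Share of tested genes called for the difference (bars, all 12 libraries), with positive differences on the left and negative ones on the right, by class of the log2 difference between the lines in CD44 WT. Points give the same with 1 WT library of each line for the baseline and the others for the change, in 3 choices. The share called positive is highest, 77 of 989 genes, where MDA-MB-231 CD44 WT was higher by 3 or more.

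Genes near 0 in one line were compared next. Of 1221 genes at 1 CPM or more in MDA-MB-231 CD44 WT and below that in Hs578T CD44 WT, 73 were called (5.98%), 67 positive and 6 negative, and 46 of these rose in Hs578T alone. Of 1815 genes in the reverse state, 30 were called (1.65%), 13 positive and 17 negative. Genes below 1 CPM in a WT group passed the filter mainly through another group in which they were higher, so these shares depend on the filter. Among the 157 genes that rose in Hs578T alone, the median WT level was 3.47 CPM in Hs578T and 14.5 CPM in MDA-MB-231, 56 were below 1 CPM in Hs578T CD44 WT, and 91 were at least 1 log2 unit higher in MDA-MB-231 CD44 WT. Examples are ADAMTS1, a secreted protease at 0.485, 0.576 and 1.52 CPM in Hs578T CD44 WT, 5.86, 10.5 and 8.27 CPM in CD44 KO and 104 to 215 CPM in MDA-MB-231, and IGFBP3, which binds insulin-like growth factors, at 0.277, 0.411 and 0.423 CPM, then 2.65, 2.096 and 2.05 CPM, and 38.8 to 55.3 CPM in MDA-MB-231.

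In the other classes of genes called in 1 line, the line that responded was not the one with the higher WT level as a rule. It was the higher one for 73 of 152 genes that fell in Hs578T alone (48.0%), 56 of 149 that fell in MDA-MB-231 alone (37.6%) and 27 of 76 that rose in MDA-MB-231 alone (35.5%). Over all genes tested, Hs578T CD44 WT was the higher for 51.5%. Of the 34 genes with opposite calls, 15 ended nearer between the lines in CD44 KO than in CD44 WT and 19 farther apart, and 13 turned the order of the lines. Of all 653 genes, 259 ended nearer (39.7%, against 45.5% of all genes tested) and 394 farther apart. For 35 genes the order of the lines turned with at least 1 log2 unit on both sides, among them IQGAP2, RARB, SPANXD, ADGRG2, MAF and PCDH18.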

How the data were processed

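RNA sequencing of sorted cells gave 12 libraries, 3 for each line and CD44 status. The authors deposited 1 table of raw counts per gene, made per the labels with HISAT2 2.1.0 and featureCounts 1.6.2 (Subread) on hg38. Gene names came from an annotation table and matched 57799 of 58381 genes. Genes of at least 300 nt of exon and above 1 CPM in 2 or more libraries were fitted with edgeR 4.0.16 (TMM, quasi-likelihood F-test, 4 group means, R 4.3.3), and the difference of the KO-minus-WT changes was tested and adjusted over all genes (Benjamini-Hochberg, call at 0.01). SE values are the size of the fitted log2 fold change divided by the square root of its F statistic, both from the same fit. CPM use the TMM factors. On simulated counts for 15836 genes, 60 of 100 genes with a true difference of 1 (log2) and 100 of 100 with a difference of 2 were called, with 2 false calls. The changed genes were drawn from those averaging at least 5 CPM, with at least 1 CPM in each line. Recovery of genes near 0 in a line was not measured.

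The genes described, the gene lists and the questions were chosen with earlier results of these data known, so no list is independent evidence. Genes were named by rule: the 10 most positive and 10 most negative called differences at 5 CPM or more in a group with KO libraries on 1 side of the WT libraries in a line, the genes with opposite calls, and up to 4 called members of a list by smallest adjusted p, of which the text describes mainly those called without each library in turn. The medians by stretch of chromosome were added after the values were seen. A comparison of promoter features between gene groups was void, because only 71.3% of tested and 77.6% of called genes had a promoter in the table. Replicate numbers did not pair libraries, since deviations of same-numbered libraries correlated between -0.115 and 0.164. One MDA-MB-231 CD44 WT library carries no replicate number in the count table. Alternatives were DESeq2 1.42.0, limma voom (limma 3.58.1), other scaling and filters, blocks and leaving out each library.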

Additional observations from a re-analysis of the deposited data

Results flagged for a closer look

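A test of the difference between the lines was passed by 653 genes, and 34 genes were called in both lines in opposite directions. Both counts are marked because the change from the CD44 WT to the CD44 KO pool differed between the 2 lines by a test of the difference itself. Groups of 3 libraries are too small to test a single library as an outlier.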

How the results depend on the processing

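The number of genes called for the difference was 653, and 34 were called in opposite directions. DESeq2 gave 1177 and 75, no filter on low counts 1373 and 112, and an adjusted p of at most 0.05 gave 1670 and 118. A log2 size of at least 1 left 468 and 20. Other scalings, filters and fits gave 625 to 694 genes. Leaving out 1 library gave 396 to 804 genes and 14 to 46 with opposite calls, and the cause was not tested. The lowest opposite count came on leaving out replicate 2 of MDA-MB-231 CD44 KO. With the replicate number as a replicate block in 11 libraries, 471 genes were called, 436 of them among the 653, and 17 had opposite calls, and CYBA, NUDT16L2P and GABRG3 lost their call (edgeR adjusted p = 0.0121, 0.0138 and 0.0130). TMTC2 lost its call in the newer quasi-likelihood fit of edgeR (adjusted p = 0.0117). The numbers do not pair the samples, so this is not read as a weaker effect. With the sets of consecutive numbers in the column names as the block, 742 genes were called, 617 of them among the 653, and 35 had opposite calls, 29 of them among the 34. Deviations within these sets correlated at a mean of 0.0707 (-0.00115 to 0.164 over 18 pairs), against -0.0351 over the 36 pairs from different sets. The main fit has no such block. The baseline correlation of -0.0308 ranged from -0.0699 to -9.87e-05 without 1 library, and turned to 0.00346 and 0.0471 in 2 of the 3 choices of separate WT libraries. The alternative without the genes between the start of chromosome 11 and CD44 was chosen after seeing the data and gave 597 and 33. None of the 653 genes was called in the opposite direction in the alternative fits of the difference. Without each library in turn, 0 turned the sign of the estimate, which was not compared in the other settings. Depths of 10257586 to 19725543 counts and 3 libraries per group limit what was detectable: genes at few counts, and differences near 1 on the log2 scale, are often missed.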
